A study of Mus musculus with 9 samples.

Results

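Gremlin 1 and the bone morphogenetic protein (BMP) pathway are described here by 10 genes: the secreted antagonist Grem1, the ligands Bmp2, Bmp4 and Bmp7, the receptor Bmpr1a, the target genes Id1, Id2 and Id3, and the inhibitory Smads Smad6 and Smad7. They were taken by gene symbol from a table of 55487 genes, and all 10 were present. The genes were picked because their levels moved between the days in these same libraries, so their own values are given as a description without a test. The other genes of the pathway were tested, but their lists were also chosen with earlier results of these data known.

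The cells were PT-22,Pax8-pTRIPZ, a modified mouse kidney proximal tubule line. All 9 libraries share the genotype Pax2-/-,Pax8fl/fl,Rosa-CreERT2, so the day 0 controls also lack Pax2 by label. Rosa-CreERT2 is a Cre recombinase made from the broadly active Rosa26 locus that enters the nucleus when 4-hydroxytamoxifen is given, and pTRIPZ is a vector whose insert is switched on by doxycycline. The 3 libraries of day 0 came from untreated cells, the 3 of day 6 from cells given 1 uM 4-hydroxytamoxifen to remove PAX8, and the 3 of day 12 from cells then given doxycycline at 1 ug/ml. The labels give the 4-hydroxytamoxifen treatment as 2 days in one place and 6 days in another, and do not say whether the line is 1 clone or whether A, B and C are independent cultures. The p-values below thus rest on a spread between libraries that may be technical. No vehicle-treated library and no untreated library after day 0 was analysed here, so time, drug and PAX8 cannot be told apart.

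BMPs are secreted dimers that bind receptor kinases at the cell surface, which then phosphorylate SMAD1, SMAD5 and SMAD9. These enter the nucleus with SMAD4 and switch on genes such as the Id family, whose products bind E proteins and keep them off DNA, and the inhibitory Smads, which feed back on the receptors. Gremlin 1 binds BMP2, BMP4 and BMP7 outside the cell and keeps them from their receptors. In the kidney, BMP7 keeps nephron progenitors alive, gremlin 1 is needed for the ureteric bud to grow out, and gremlin 1 is raised in several forms of kidney injury and fibrosis.

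The libraries held 56397100 to 86765292 counts. A single count equalled 0.0119 to 0.0172 CPM, which are counts scaled to library size, here by the TMM method. Day 0 had 291 ± 1.67 CPM of Pax8 itself, day 6 had 405 ± 5.87 and day 12 had 496 ± 7.79 (SD, n = 3). Pax8 was thus not lower in the libraries labelled as depleted. Pax2, deleted by label, had means of 31.9, 46.9 and 52.3 CPM at these days (day 6 against day 0, adjusted p = 8.64e-07). Gene-level counts can include RNA without the deleted exons and, for Pax8, RNA from the vector. Of 10 proximal tubule markers, the transporters Slc34a1, Slc5a12 and Slc22a6 had 0 counts in every library, whereas Lrp2, the endocytic receptor megalin, had 343 to 430 CPM at day 0 and 50.5 to 82 later. Aqp1, the water channel of the proximal tubule, went the other way, with means of 118.6, 324.2 and 328 CPM at days 0, 6 and 12 (day 6 against day 0, adjusted p = 1.78e-11), and made up most of the marker sum at the later days. The markers, 4 of which passed the filter, summed to 472 to 564 CPM at day 0, 365 to 400 at day 6 and 372 to 429 at day 12. The share of mitochondrial counts was 2.43% and 2.1% in replicates A and C of day 12 but 3.96% in replicate B, and 6.66% to 7.18% in the libraries of the earlier days. Without day 12 replicate B, 8 of the 10 genes and 30 of the pathway genes were called between days 6 and 12, beside 6763 of all 16730 genes then tested; with it, the pathway count was 34.

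Grem1 (ENSMUSG00000074934) lies on the minus strand of GRCm38 chromosome 2 from 113746164 to 113758646. The 250 bases before its start, from RefSeq (GRCm38.p6, chr2:113758649-113758898), are shown because Grem1 had the largest difference between days of the 10 genes. Capitals mark CAGAC, a single SMAD box, and GGCGCC, a GC-rich SMAD element.
Grem1: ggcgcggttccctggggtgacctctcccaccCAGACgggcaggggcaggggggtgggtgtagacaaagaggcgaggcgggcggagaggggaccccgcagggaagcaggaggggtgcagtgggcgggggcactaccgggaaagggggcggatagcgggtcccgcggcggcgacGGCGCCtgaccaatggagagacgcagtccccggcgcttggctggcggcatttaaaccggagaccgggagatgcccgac
The stretch is 72% G and C. On either strand, CAGAC was held by 42.2% and GGCGCC by 9.59% of 32841 RefSeq promoter windows of this length. These matches describe letters and are not evidence of binding.

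Grem1 RNA was all but absent from untreated cells and abundant in every later library. Replicates A, B and C of day 0 held 3, 0 and 3 counts. At day 6 they held 8647, 9110 and 6768 counts, or 128, 123 and 116 CPM. Day 12 gave 114, 112 and 103 CPM. No library of day 0 overlapped with any later one, while days 6 and 12 lay side by side, with the highest of day 12 just under the lowest of day 6. The summed counts, adjusted for library size, gave a ratio of 4410 for day 6 against day 0 (exact 95% interval 2030 to 12000) and 3960 for day 12 against day 0 (1820 to 10800). The intervals cover counting error only. Against day 6, the day 12 level differed by a log2 fold change of −0.16 ± 0.045 (SE). TPM corrects for length and is not scaled by TMM. On TPM the order turned: 42.3 ± 1.8 at day 6 and 44 ± 2.19 at day 12 (SD, n = 3). The median of all genes moved upward too between these days, by 0.164 on log2(TPM + 1). Relative to the median of all genes within each library on TPM, Grem1 was again lower at day 12, with a log2 difference of −0.152.

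**Figure D1:**
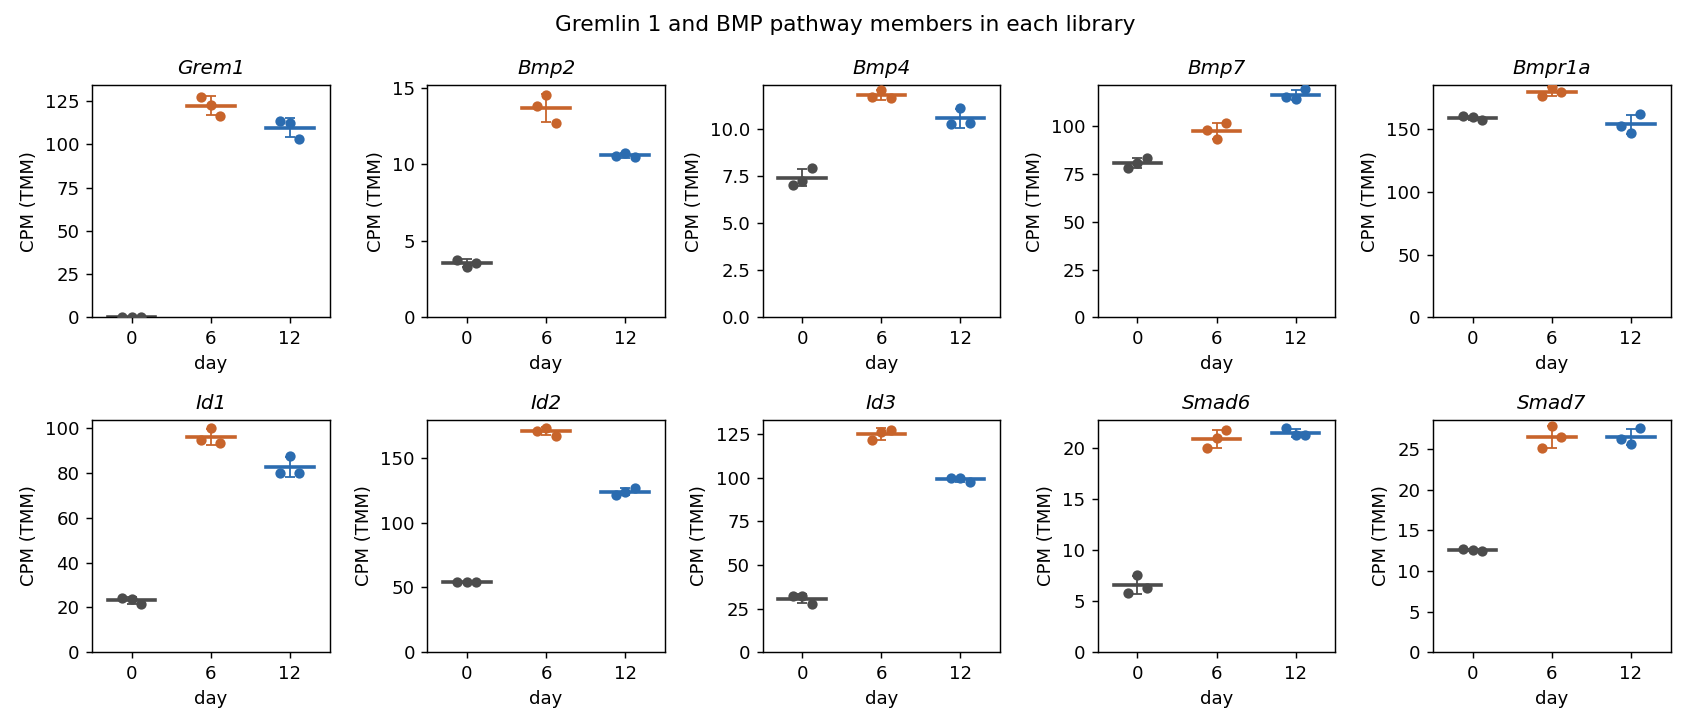
TMM-normalised CPM of the 10 genes in each library by day (0, 6 or 12), on linear axes that start at 0 and differ between genes; points are libraries, wide lines are means and thin bars are SD (n = 3). Grem1 is at the axis at day 0 and above 100 CPM later, Bmp7 is highest at day 12, and the Id genes are highest at day 6.

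The ligand genes differed far less than their antagonist. Bmp2, a ligand of bone and kidney development, had 3.79, 3.31 and 3.58 CPM at day 0. It had 13.8, 14.5 and 12.7 CPM at day 6. Day 12 gave 10.6, 10.7 and 10.5 CPM. The 3 days did not overlap, with day 12 between the other days but closer to day 6 (log2 fold change 1.94 ± 0.072 for day 6 and 1.57 ± 0.073 for day 12, each against day 0).

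Bmp4, which patterns the ureter and its stroma, had 7.06, 7.25 and 7.92 CPM at day 0. Its day 6 values were 11.7, 12.1 and 11.7 CPM. Those of day 12 were 10.3, 11.1 and 10.3 CPM, below every day 6 library and above every day 0 library. On TPM the spread was wider, at 18.9 ± 3.31, 24 ± 4.59 and 33 ± 3.55 (SD, n = 3), days 0 and 6 overlapped and day 12 was the highest. Bmp4 shares 89 exon bases with Gm15217 on the other strand, and the strand setting of the counting is not given in the sources used here.

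Bmp7, the most abundant of these 3 ligands on TPM at each day, took another course. It had 78.2, 80.8 and 83.4 CPM at day 0. It had 97.9, 93.1 and 101 CPM at day 6. Day 12 was higher still, at 115, 114 and 119 CPM. Its libraries did not overlap between any days, and on CPM it was the only one of the 10 genes to stand higher at day 12 than at day 6 without overlap, by a log2 fold change of 0.25 ± 0.036. On TPM, Bmp4, Smad6 and Smad7 also stood higher at day 12 without overlap.

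Set against its ligands per length, Grem1 went from a trace to a level of the same order. Bmp2, Bmp4 and Bmp7 summed to 51.05 ± 3.757 TPM on day 0, to 68.03 ± 3.143 on day 6 and to 91.28 ± 1.38 on day 12. Grem1 TPM divided by that sum gave 0.000127 ± 0.00011 on day 0, then 0.6223 ± 0.0352 on day 6 and 0.4828 ± 0.0304 on day 12 (SD, n = 3). With Bmp6 added to the ligands, the ratio was 0.3252 at day 6 and 0.2445 at day 12. These are ratios of RNA, and no protein was measured.

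**Figure D2:**
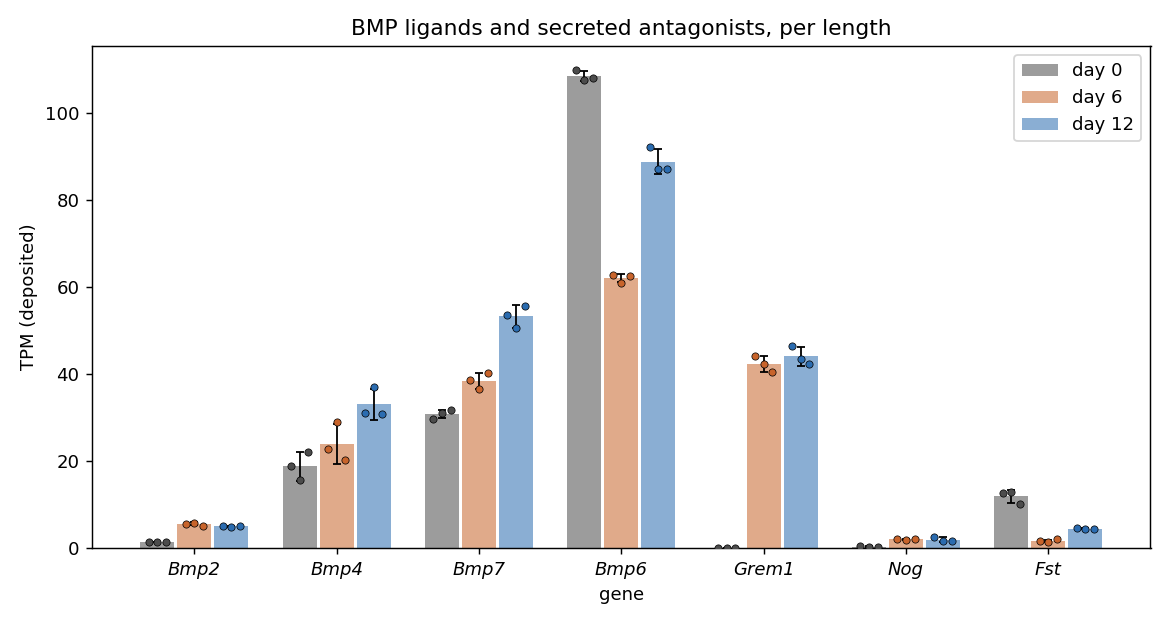
Deposited TPM of the ligands Bmp2, Bmp4, Bmp7 and Bmp6 and of the antagonists Grem1, Nog and Fst at days 0, 6 and 12; bars are means from 0, points are libraries and error bars are SD (n = 3). Grem1 stands at 42.3 TPM at day 6 and 44 at day 12, Bmp6 is the highest of these genes at each day, and Nog stays near the axis.

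Bmpr1a, a type I BMP receptor kinase, differed least of the 10 genes between days 0 and 6. It had 160, 159 and 157 CPM at day 0. It had 176, 183 and 179 CPM at day 6. By day 12 it had 152, 147 and 162 CPM. Day 6 stood above both other days without overlap, and day 12 overlapped with day 0 (log2 fold change −0.05 ± 0.035). On TPM, days 6 and 12 both averaged 45.8 against 39.9 at day 0. It shares 290 exon bases with Gm17110 on the other strand.

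The Id genes encode inhibitors of basic helix-loop-helix factors and are among the most direct readouts of BMP signalling. Id1 had 24.1, 23.7 and 21.5 CPM at day 0. It had 94.8, 99.8 and 93.3 CPM at day 6. Day 12 lay in between, at 80, 87.6 and 79.9 CPM. Each day 6 library lay above each day 12 library, and all 6 lay above day 0 (log2 fold change 2.05 ± 0.049 for day 6 and 1.84 ± 0.049 for day 12 against day 0).

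Id2 had the highest mean TPM of the 3 at days 0 and 6. It had 54.5, 54.2 and 54.1 CPM at day 0. It had 171, 173 and 167 CPM at day 6. By day 12 it had 121, 124 and 126 CPM. It showed the largest step down of the 10 genes after day 6, with a log2 fold change of −0.46 ± 0.028, and no 2 days overlapped.

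Id3 had 32.2, 31.9 and 27.7 CPM at day 0. It had 121, 126 and 128 CPM at day 6. Day 12 gave 100, 99.6 and 97.5 CPM. The days were again separate, with log2 fold changes of 2.03 ± 0.047 for day 6 against day 0 and −0.34 ± 0.043 for day 12 against day 6. Thus the 3 Id genes shared 1 order of days on CPM: day 6 highest, day 12 next, day 0 lowest. On TPM the same order held for the means, although Id1 differed little, at 191 on day 6 and 189 on day 12.

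Smad6 and Smad7 encode the inhibitory Smads. Smad6 had 5.84, 7.54 and 6.32 CPM at day 0. It had 20, 21 and 21.8 CPM at day 6. Day 12 gave 22, 21.3 and 21.3 CPM. Days 6 and 12 overlapped, and both lay above day 0 (log2 fold change 1.68 ± 0.073 for day 6 against day 0).

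Smad7 had 12.7, 12.5 and 12.5 CPM at day 0. It had 25.1, 27.8 and 26.6 CPM at day 6. At day 12 it had 26.2, 25.7 and 27.7 CPM. As with Smad6, the later days overlapped, with a mean of 26.5 CPM at each. On TPM the later days parted, at 10.4 and 12.4 for Smad6 and at 17.8 and 21.8 for Smad7. On CPM, the inhibitory Smads thus overlapped between days 6 and 12 while the Id genes stood lower at day 12 without overlap. Whether the 2 groups of genes differ in this was not tested.

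Short sequences around SMAD motifs near the start are shown for Smad6, Id3 and Id2, the target genes searched that held one. Capitals mark the motif. RefSeq promoter entries were used for 6 of the 10 genes (Grem1, Bmp4, Bmpr1a, Id2, Id3 and Smad6). The Smad6 window is chr9:64022045-64022074 on the minus strand, and its GTCTAGAC, the palindromic SMAD-binding element, runs across the start. The Id3 windows are chr4:136143643-136143672 and chr4:136143742-136143771 on the plus strand, and both lie in exons of the longer GENCODE model. The Id2 window is chr12:25096306-25096335 on the minus strand.
Smad6: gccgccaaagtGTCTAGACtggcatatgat
Id3, 167 bases before the start: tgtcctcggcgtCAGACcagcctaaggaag
Id3, 68 bases before the start: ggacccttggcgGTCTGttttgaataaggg
Id2, 231 bases before the start: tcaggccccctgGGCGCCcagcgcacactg
GTCTG is CAGAC read on the other strand. GTCTAGAC occurred in 0.213% of all RefSeq windows that reach past the start (300 bases), the lowest share of the motifs searched. At 8 bases it is also the longest of them, and longer motifs match less often. The CAGAC and GGCGCC matches are common letters by the shares given above for Grem1. Entries for Atoh8 and Bmp6 were searched too. Atoh8, which rose by day 6, held no GGCGCC, GTCTAGAC or CAGAC, and neither did Bmp4. Bmp6, which fell by day 6, held a CAGAC, and Bmpr1a a GGCGCC. Here too the matches describe letters and are not evidence of binding.

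Counted together, the genes picked stood higher at day 6 than at day 0 and, on CPM, mostly lower again at day 12. Between days 0 and 6, 10 of 10 were called higher and 0 lower at an adjusted p under 0.05, and in all 10 the groups did not overlap. Over all 16353 genes tested, 64.9% were called (33.5% higher, 31.4% lower) and 68.9% did not overlap. A call of at least 2-fold was made for 7 of the 10, all higher, against 9.66% of all genes higher and 4.65% lower. Between days 6 and 12, 7 were called lower and 1 higher, and 8 did not overlap. Over all genes 45.3% were called (22.6% higher, 22.7% lower) and 53.9% did not overlap. None of the 10 moved 2-fold in that step, which 2.28% of all genes did upward and 1.99% downward. Between days 0 and 12, 9 were called higher and 0 lower, and 9 did not overlap, against 66.4% called (34.7% higher, 31.7% lower) and 69.7% without overlap over all genes. At least 2-fold calls were made for 7, against 9.43% of all genes higher and 4.18% lower. By day 12, 7 had moved back toward day 0 (25.8% of all genes did so after a change in either direction), and 9 were higher than day 0 at both later days (26.9%). The genes were picked on these contrasts, so nothing is read from the counts. The 3 comparisons also share libraries. Grem1 passed the filter on low counts only through days 6 and 12.

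A further 87 pathway genes in 6 lists were examined, of which 59 passed the filter and 17 had 0 counts in every library. From day 0 to day 6, 35 of the 59 rose and 11 fell, which is 78% called, against 64.9% of all genes. The median log2 fold change was 0.269 against 0.022 over all genes. By at least 2-fold, 15 rose and 4 fell, beside 9.66% of all genes higher and 4.65% lower. Of the 15, Gdf5, Chrd, Nrros, Pcsk6 and Tbx2 would not have passed the filter on the day 0 libraries alone. Chrdl2, which fell, would not have passed on those of day 6 alone. The genes just named are also among the 46 called between days 0 and 6. The lists themselves were chosen with earlier results of these data known. The counts of calls and the 2-fold counts are thus given as a description. From day 6 to day 12, 11 rose and 23 fell (57.6% against 45.3% of all genes, median −0.047 against 0.008). At day 12, compared with day 0, there were 34 higher and 14 lower (81.4% against 66.4% of all genes, median 0.229 against 0.025). All calls are edgeR quasi-likelihood tests with Benjamini-Hochberg adjustment over all genes tested. The counts of the single lists below stand beside these same shares of all genes.

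**Figure D3:**
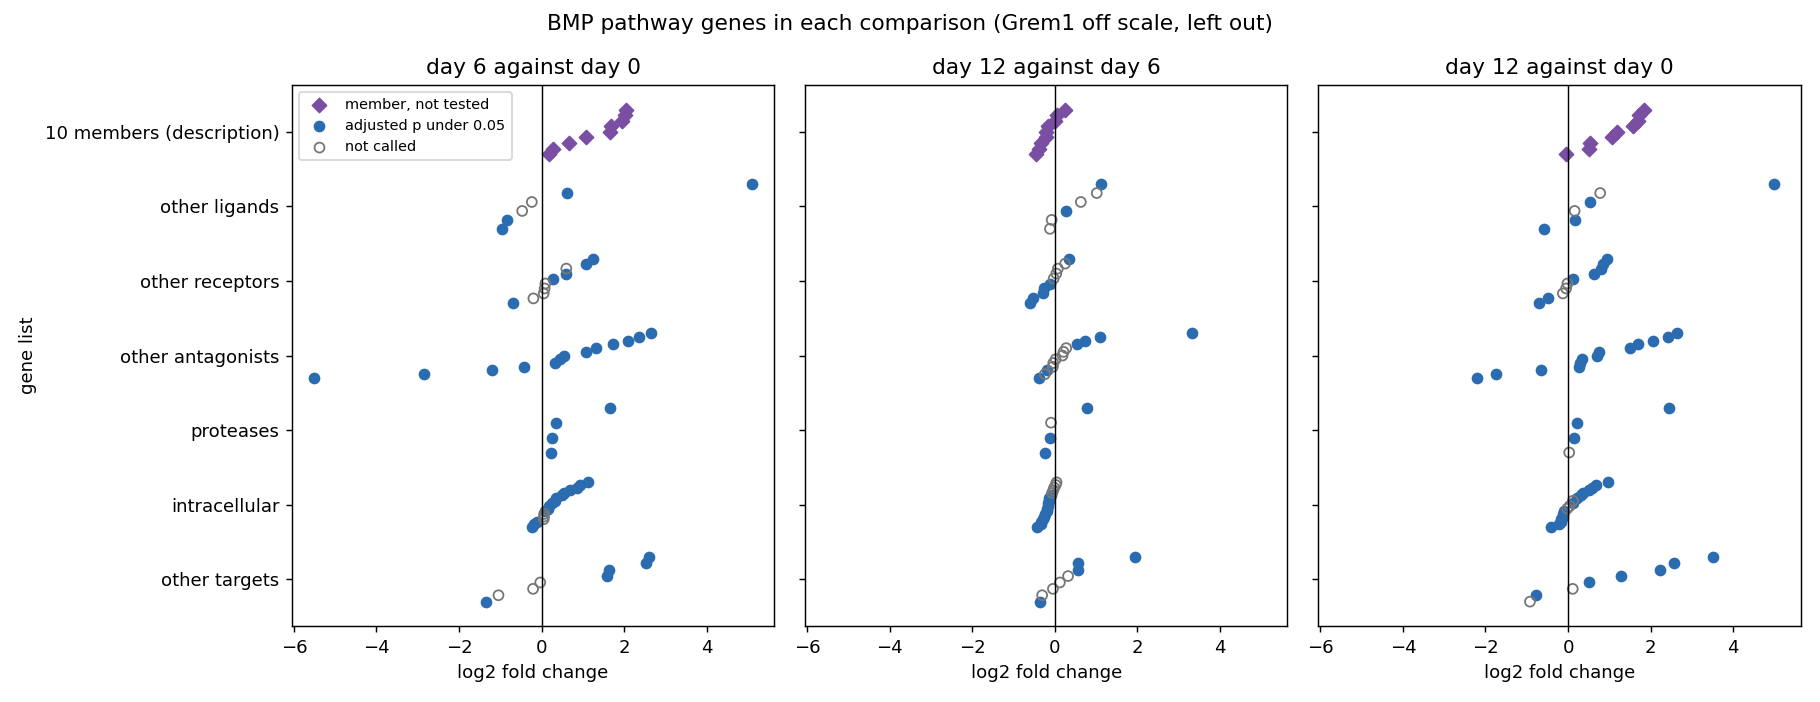
Log2 fold changes of the listed genes in the 3 comparisons, 1 point per tested gene and 1 row per list; filled circles have an adjusted p under 0.05, open circles do not, and diamonds are the genes picked, drawn without a test and without Grem1, which is off the scale. Of the 59 listed genes, 35 lie to the right and 11 to the left as called genes at day 6 against day 0, and the points lie closer to 0 at day 12 against day 6.

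Among the other ligands, 6 of 15 were tested, and 2 rose and 2 fell by day 6; from day 6 to day 12, 2 rose and 0 fell. Bmp6, the ligand that sets hepcidin in the liver, was the most abundant BMP in untreated cells at 108 TPM. It had 280, 272 and 277 CPM at day 0 and fell to 155, 152 and 154 at day 6 (log2 fold change −0.85, adjusted p = 8.07e-13). It rose in part to 189, 186 and 183 CPM at day 12 (0.28, adjusted p = 2.11e-06), still below day 0. Bmp6 shares 224 exon bases with Txndc5 on the other strand. Bmp3, an atypical ligand that opposes other BMPs, fell from 17.4 to 8.93 CPM (−0.96, adjusted p = 7.62e-09) and rose to 19.4 at day 12 (1.12, adjusted p = 9.95e-09). Gdf11, which signals through activin receptors, rose from 25.1 to 38.6 CPM (0.62, adjusted p = 3.9e-08). Bmp6 and Bmp3 thus ran opposite to Bmp2 and Bmp4 at both steps on CPM. Gdf5, a ligand of joints, had 2 counts at day 0 and 76 at day 6, a ratio of 41 (exact 95% interval 11 to 345), and shares 936 exon bases with Gm15557.

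Of the other secreted or cell-surface antagonists and modulators, all 13 tested of 20 were called by day 6, with 9 higher and 4 lower. Over all genes, 64.9% were called in that step. The 13 include Chrd and Nrros, which would not have passed the filter on day 0 alone, and Chrdl2, which would not have on day 6 alone. From day 6 to day 12, 4 rose and 2 fell. Noggin (Nog), which like gremlin 1 traps BMPs, had 0.442, 0.192 and 0.36 CPM at day 0. It rose to 2.22, 2.1 and 2.13 at day 6 (log2 fold change 2.66, adjusted p = 1.48e-07) and had 2.37, 1.54 and 1.52 at day 12. Chordin (Chrd), another BMP trap, had 0.138 CPM at day 0 and 0.703 at day 6 (log2 fold change 2.36). Per length both stayed far below Grem1, with 2.02 TPM for Nog and 0.343 for Chrd at day 6 against 42.3 for Grem1. Chrd shares 239 exon bases with Thpo on the other strand. Its day 0 level rests on few counts, and it would not have passed the filter on the day 0 libraries alone. Sostdc1, a secreted antagonist of BMPs and Wnts, had 0 counts in all 9 libraries.

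The other antagonists split. Nbl1, of the same cystine-knot family as Grem1, rose from 38.8 to 129 CPM (a log2 fold change of 1.73, adjusted p = 2.26e-15), and Fstl1, a secreted glycoprotein that binds BMP4, from 40.8 to 174 (2.09, adjusted p = 8.56e-16). Follistatin (Fst), which binds activins above all, dropped from a mean of 15.3 to 2.12 CPM at day 6 (−2.86, adjusted p = 2.94e-13) and rose to 4.54 at day 12 (1.10, adjusted p = 4.48e-07). It shares 115 exon bases with Gm47040. Twsg1, a chordin cofactor, had the highest level per length of all listed pathway genes at day 0, at 291 TPM, and fell from 826 to 358 CPM (−1.21, adjusted p = 4.51e-14). It rose to 522 CPM at day 12 (0.55, adjusted p = 4.97e-09). Fst and Twsg1 fell and came back in part, whereas Nbl1 and Fstl1 had 124 and 169 CPM at day 12, near their day 6 levels on CPM. Fstl3, a follistatin relative, fell from 14.7 to 10.9 CPM (−0.43, adjusted p = 2.06e-06) and rose to 18.1 (0.72, adjusted p = 3.21e-08), but shares 1157 exon bases with Prss57. Bmper, which binds BMPs in the vessel wall, rose from 1.25 to 2.65 CPM (1.08, adjusted p = 1.09e-05). Chrdl2, a chordin relative, went from 0.986 CPM to 0.0197 and then 0.212 over the 3 days.

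Of the other receptors and co-receptors, 10 of 12 were tested, and 4 rose and 1 fell by day 6, whereas 1 rose and 5 fell from day 6 to day 12. Acvr1, a type I receptor also called ALK2, had 21.5, 21.7 and 20.9 CPM at day 0 and rose to 42.6, 45.8 and 46.2 (log2 fold change 1.07, adjusted p = 3.55e-12). It fell to a mean of 37.4 by day 12 (−0.26, adjusted p = 7.23e-05). Bmpr2, the main type II receptor, had 192 ± 10.3 and 199 ± 9.25 CPM at days 0 and 6 (0.05, adjusted p = 0.506) and fell to 138 ± 14.7 at day 12 (−0.53, adjusted p = 8.36e-06). Tgfbr3, a co-receptor also called betaglycan, fell from 51.3 to 32 CPM (−0.68, adjusted p = 3.6e-09) and shares 297 exon bases with Gm43422. Rgma, a co-receptor, rose at both steps, from 4.56 to 6.92 and 8.83 CPM (adjusted p = 3.2e-06 and 0.000778). Endoglin (Eng), a co-receptor of vessels, rose from 0.799 to 1.9 CPM (1.25, adjusted p = 2.3e-06) and fell to 1.24 (−0.61, adjusted p = 0.00253). Acvr2a, a type II receptor, rose from 38.8 to 46.8 CPM (0.27, adjusted p = 4.71e-06) and fell to 38.4 (−0.28, adjusted p = 9.39e-06). On the other strand, Acvr2a shares 446 exon bases with Orc4, and Rgma shares 258 with A730056A06Rik. Bambi, a decoy receptor, had 0 counts throughout.

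Of the intracellular genes, 18 of 19 were tested. By day 6, 12 rose and 3 fell, and from day 6 to day 12 none rose and 13 fell. Over all genes, 64.9% and 45.3% were called in these steps. Smad1, which carries the signal, rose from 26.5 to 31.6 CPM (a log2 fold change of 0.25, adjusted p = 7.31e-05). Smad5, its partner, had 95.3 and 98.8 CPM (0.05, adjusted p = 0.354, but 0.0398 without day 6 replicate B) and fell to 84.2 at day 12 (−0.23, adjusted p = 0.000948). The common mediator Smad4 fell from 95.7 to 83.5 CPM (−0.20, adjusted p = 7.67e-05). Among inhibitors of the pathway, Ski, a corepressor of Smads, rose from 83.9 to 151 CPM (0.85, adjusted p = 1.05e-11), and Tob1, which binds receptor-regulated Smads, from 24.6 to 54 (1.13, adjusted p = 4.43e-12). Smad9, which carries the signal beside Smad1, rose from 9.71 to 14.2 CPM (0.55, adjusted p = 3.5e-07) and fell to 10.5 (−0.43, adjusted p = 1.68e-05). Smurf1, a ubiquitin ligase for Smads, rose from 135 to 170 CPM (0.33, adjusted p = 1.02e-07) and fell to 139 (−0.29, adjusted p = 2.21e-06). The Smad phosphatase genes Ctdspl and Ctdsp2 rose from 34.4 to 65.5 and from 294 to 477 CPM, and fell to 51.8 and 376. Skil, a relative of Ski, rose from 95.97 to 135.2 CPM and had 137.3 at day 12, above day 0 (0.52, adjusted p = 3.44e-09). The step from day 6 to day 12 depends on the scale: of the 13 genes that fell on CPM, Smad1, Ski, Tob1, Smurf2, Lemd3, Xiap and Map3k7 had higher mean TPM at day 12 than at day 6. Smad4, not called on CPM in that step (−0.02, adjusted p = 0.728), had 40.7 TPM at day 6 and 45.8 at day 12. All 4 proteases tested of 7 rose by day 6, as did 33.5% of all genes. Bmp1, which cleaves chordin, rose from 128 to 162 CPM (0.34). Furin, which cuts BMP precursors, rose from 69.3 to 83.1 (0.26, adjusted p = 2.57e-06). Pcsk7, another proprotein convertase, rose from 21.2 to 24.9 CPM (0.23, adjusted p = 0.000289), and shares 523 exon bases with Rnf214 and Tagln on the other strand.

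Of the other target genes, 8 of 14 were tested, and 4 rose and 1 fell by day 6, then 3 rose and 1 fell by day 12. Atoh8, a helix-loop-helix factor induced by BMPs, had 4.33, 4.43 and 4.36 CPM at day 0. It rose to 27.2, 25.5 and 27.2 at day 6 (log2 fold change 2.61, adjusted p = 2.18e-14) and had 26.2, 27.4 and 23.6 at day 12 (−0.05, adjusted p = 0.516). Runx2, the bone factor, rose from 13.9 to 43.2 CPM (1.64, adjusted p = 3.32e-11) and fell to 33.8 (−0.35, adjusted p = 0.000819), and shares 519 exon bases with an antisense gene. Dlx3, a homeobox gene, rose from 0.359 to 2.09 CPM (2.54, adjusted p = 2.1e-09). Id4, the remaining Id gene, went against Id1, Id2 and Id3: it had 3.13, 3.47 and 2.9 CPM at day 0 and fell to 1.34, 1.04 and 1.38 (−1.34, adjusted p = 7.43e-07). It then rose to 1.65, 2.05 and 1.84 (0.57, adjusted p = 0.00643). Tbx2, a T-box repressor, had 0.132, 0.419 and 1.59 CPM at days 0, 6 and 12 (adjusted p = 2.23e-05 for day 12 against day 6). It would not have passed the filter on the day 0 libraries alone, so its first step is a description. Gata3, a transcription factor of the nephric duct, had 5.1 and 4.98 CPM at days 0 and 6 and rose to 7.3 at day 12 (0.55, adjusted p = 4.49e-05), and shares exon bases with neighbours on both strands. Id4 shares 253 exon bases with genes on the other strand. The classical targets Msx1, Msx2, Dlx5 and Tbx3 had 0 counts in all 9 libraries.

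**Figure D4:**
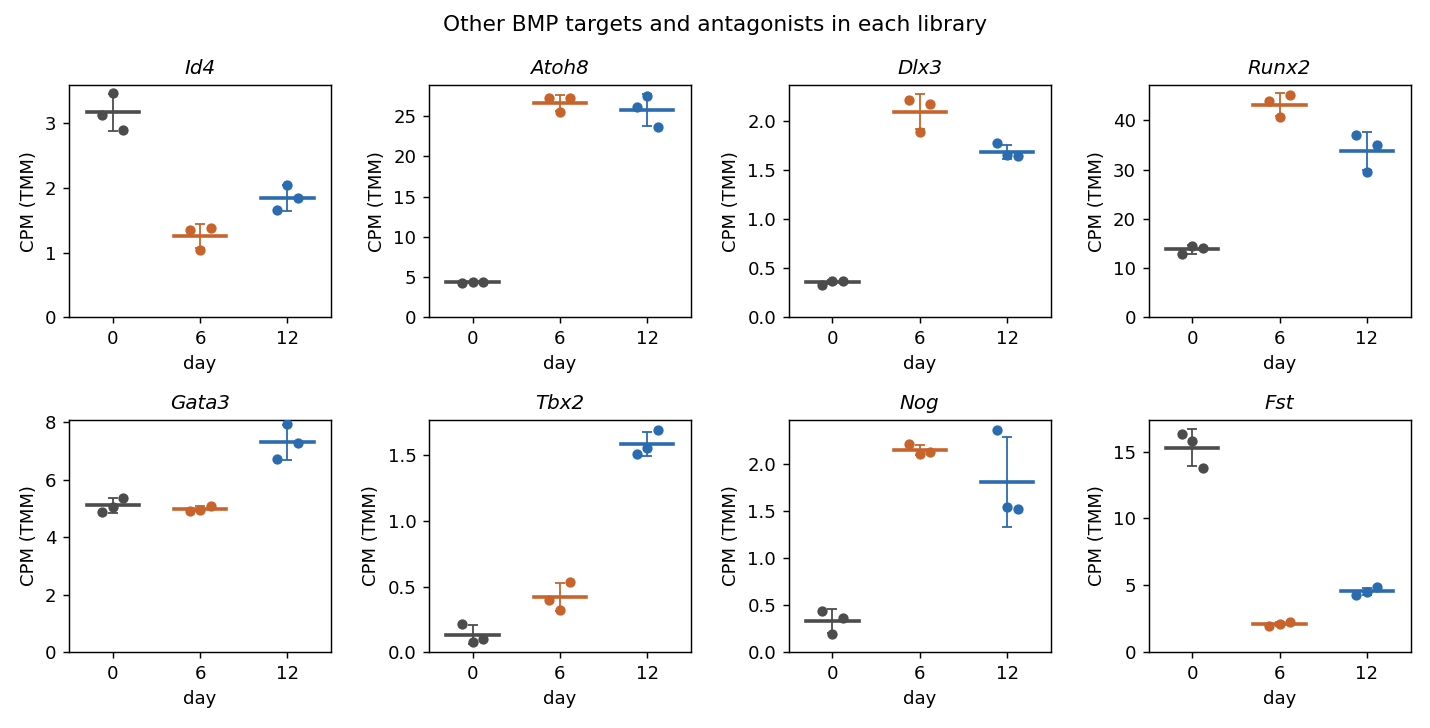
TMM-normalised CPM of 6 other target genes (Id4, Atoh8, Dlx3, Runx2, Gata3, Tbx2) and of the antagonists Nog and Fst in each library by day, on linear axes that start at 0 and differ between genes; points are libraries, wide lines are means and thin bars are SD (n = 3). Id4 and Fst are lowest at day 6, Tbx2 and Gata3 are highest at day 12, and the others are lowest at day 0.

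The E proteins that ID proteins bind were all called at day 6, as were 64.9% of all genes. Their log2 fold changes were smaller than those of Id1, Id2 and Id3. Tcf4 rose from 39.8 to 81.9 CPM and Tcf3 from 170 to 219 by day 6, whereas Tcf12 fell from 103 to 79.6. All 3 fell slightly from day 6 to day 12, to 74, 195 and 74.8 CPM. On TPM that last step had the opposite sign for each, and some calls there rested on single libraries. Tcf4 lost its call without replicate A or C of day 6 or without B or C of day 12 (adjusted p = 0.0653 to 0.169), and Tcf12 without replicate A of day 6 or of day 12 (adjusted p = 0.0708 and 0.0511).

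Markers of other cell types were counted beside these results. Stromal and mesenchymal markers summed to 11.6 to 12.5 CPM at day 0, 110 to 128 at day 6 and 127 to 143 at day 12. Of the 8 tested of 10, 6 were called higher at day 6, beside 33.5% of all genes. Postn and Acta2 made up most of the sum at days 6 and 12. Pdgfrb had 0.0762 CPM at day 0 and 2.45 at day 6, Col3a1 had 0.00879 and 0.756, and Dpt had 0.0478 and 1.53. None of them had more than 8 counts in a day 0 library. They passed the filter on low counts only through days 6 and 12, so no p-value is given for them. The 6 called higher include these genes and Col1a2, which had 3, 11 and 7 counts at day 0. That count is thus a description. Dcn fell from 4.92 to 0.442 CPM (adjusted p = 1.15e-11) and rose to 5.08 at day 12 (adjusted p = 1.61e-10). Pdgfra and Lum had at most 5 counts in any library. Endothelial markers summed to 2.88 to 3.49, 13.9 to 14.6 and 9.5 to 10.3 CPM. Podocyte markers summed to 451 to 462, 291 to 300 and 384 to 405 CPM, immune markers to 16.4 to 18.6, 14.8 to 16.6 and 13.4 to 14.9, and collecting duct and loop markers to at most 0.241. The stromal sum moved with Grem1 and its part in the result was not tested. In bulk RNA, more or fewer cells of a type cannot be told apart from more or less RNA per cell.

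The genes whose levels followed Grem1 most closely over the 9 libraries were found by Pearson correlation of log2(CPM + 1) among 1012 genes of at least 5 CPM in some group that varied at least 2-fold between days. They were St6gal1 and Masp1 (r = 0.9996 each), Gpx3 and Marcks (0.9994 each) and Scara3 (0.9992). Masp1, a complement-activating protease, had 2.54, 179 and 179 CPM at days 0, 6 and 12. Those closest to Id1 were Il33 (0.9991), Gpnmb (0.9989), Neurl3 and Endod1 (0.9988 each) and Il1rn (0.9987). Il33, an alarmin cytokine, had 2.15, 11.9 and 10.2 CPM. On TPM, only Masp1 of the 5 nearest to Grem1 and only Il33 and Gpnmb of the 5 nearest to Id1 were again among the 5 nearest, so most of these names depend on the scale. Libraries of 1 day share their treatment, so these values mostly describe 3 group means.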

How the data were processed

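Polyadenylated RNA of 9 libraries was sequenced. Raw gene counts, in whole numbers, and TPM values are the 2 tables that the authors deposited. The submitters' processing notes name RSEM 1.3.3, STAR 2.7.8a, cutadapt 2.3, FastQC 0.11.8 and the build GRCm38. What each tool did, the strand setting and the annotation release were not given in the sources used here. Gene positions came from GENCODE M21, which held 55227 of the 55487 identifiers. Exon bases shared with other genes are given for some of the named genes only. The 4 transgene entries were left out.

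Counts were filtered with filterByExpr by group (16353 genes kept) and scaled by TMM. The test was the quasi-likelihood one of edgeR 4.0.16, run in R 4.3.3, with the 3 days as groups and every library in a single fit. P-values were two-sided and adjusted by Benjamini-Hochberg over all genes tested, with a threshold of 0.05. CPM are TMM-normalised. The fit was checked on simulated data. Alternatives were DESeq2 1.42.0, limma 3.58.1 on log2(TPM + 1) and log2(TPM + 0.1), other scalings, no filter, a replicate block, leaving out each library and, added after seeing the data, TPM relative to the median of all genes.

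The 10 genes, the 6 pathway lists and the marker lists were chosen with earlier results of these data known. Of each pathway list, the rule named up to 4 called genes per comparison with the largest log2 fold change and a mean of at least 1 CPM in the higher group, which are described; Noggin, chordin, Smad1, Smad4, Smad5, Bmpr2, Acvr1, Bambi, the E proteins and the neighbours of Grem1 were named in any case. A gene that the rule gave is not reported here. Gdf5, Chrdl2, Sostdc1 and the targets at 0 counts were named after their values were seen. Promoters came from RefSeq (GRCm38.p6) and were searched on both strands for the GC-rich element GGCGCC, the palindrome GTCTAGAC, the single box CAGAC, the paired-box core GTCACGC (1.78% of windows of 250 bases) and the E-box CANNTG (66.2%).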

Additional observations from a re-analysis of the deposited data

How the results depend on the processing

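Over the count-based alternatives, the 10 genes kept their direction between days 0 and 6. The step from day 6 to day 12 is the one that depends on the scale: on log2(TPM + 1) the median of all genes moved by 0.164 for day 12 against day 6 and by 0.186 for day 12 against day 0. There 5 of the 10 genes were called between days 6 and 12, with 4 higher and 1 lower, on both TPM scales, while on log2(TPM + 1) 7998 of all 16353 genes were higher and 878 lower; the cause was not tested. The share of calls that were higher was 90.1% on log2(TPM + 1) against 50% in the main test (day 12 against day 6), and 81.3% against 52.3% (day 12 against day 0). The 59 pathway genes then had 20 higher and 4 lower, in place of 11 and 23. For day 12 against day 6, among genes called on either scale, signs turned on log2(TPM + 1) and log2(TPM + 0.1) for Grem1 (0.057 and 0.058), Bmp4 (0.456 and 0.471), Smad1 (0.061 and 0.064), Smad4 (0.163 and 0.166), Tcf3 (0.048 on both), Tcf4 (0.119 and 0.122), Tcf12 (0.11 and 0.113), Fmn1 (0.065 and 0.07), Fstl1 (0.184 and 0.187), Nbl1 (0.161 and 0.162), Bmp1 (0.104 and 0.105), Tob1 (0.056 and 0.057) and Ski (0.03 and 0.031). For day 12 against day 0 they turned for Smad5 (0.027 and 0.028), Smad4 (0.001 on both) and Acvr2a (0.224 and 0.244). Relative to the median of all genes, Bmp4 still stood 0.247 higher at day 12 than at day 6. With CPM per kilobase in place of TPM, Grem1 relative to its 3 ligands was 0.000259, 0.885 and 0.724 at days 0, 6 and 12. Leaving out 1 library at a time gave 44 to 47, 30 to 34 and 44 to 48 called pathway genes in the 3 comparisons and 6 to 8 called of the 10 genes between days 6 and 12, beside 6433 to 7475 of all genes. Signs of steps called on neither scale turned too, as for Atoh8, Gdf11 and Tgfbr3, which had higher mean TPM at day 12 than at day 6, and Smad7, not called on CPM, was also higher on TPM. Calls lost by leaving out 1 library include Smad1 between days 6 and 12 (adjusted p = 0.0563 without day 12 replicate B), Bmp1 (0.0863 without day 12 replicate C and 0.108 without day 6 replicate C) and Bmper (0.183 without day 6 replicate B) in the same step, and Bmp3 between days 0 and 12 (0.192 without day 0 replicate B). Replicate letters showed no clear pairing of the samples (2 of 9 same-letter correlations over 0.1, from −0.14 to 0.206). Pairs of different letters and days ran from −0.265 to 0.256. So few libraries cannot exclude a pairing. With the replicate block, 46, 33 and 47 pathway genes were called. Day 0 counts of Grem1, Gdf5 and Chrd are too few to fix the size of their folds.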

Other observations

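The genes beside Grem1 on chromosome 2 differed from each other in their course, and none changed as much as Grem1. Fmn1 is a formin 29.4 kb away that is known to hold limb and kidney enhancers of Grem1. It had 34.6, 55.3 and 50.2 CPM at days 0, 6 and 12 and rose by day 6 (edgeR, log2 fold change 0.68, adjusted p = 2.85e-09). On CPM this is the same order of days as Grem1 with a far smaller difference. The fall of Fmn1 from day 6 to day 12 (−0.14, adjusted p = 0.0166) rested on single libraries. It lost its call without day 6 replicate C or day 12 replicate A or B (adjusted p = 0.0588 to 0.0677). On TPM that step had the opposite sign. Scg5, a chaperone of secretory granules 17.7 kb away, had 1.19, 1.31 and 2.26 CPM (0.14, adjusted p = 0.529 for day 6 against day 0) and rose from day 6 to day 12 (0.78, adjusted p = 0.00164). Arhgap11a, a cell division gene 72.8 kb away, fell from 179 to 98.3 CPM by day 6 (−0.87, adjusted p = 1.23e-11) and had 101 at day 12.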
